A study of Oryza sativa with 36 samples.

Results

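The response of IR64 roots to salt was followed in 6 of the 36 arrays of a rice seedling study, 3 of roots grown under salt and 3 of roots of the control, found by the genotype, organ and treatment in their labels. All 57258 probe sets that were not manufacturer's controls were compared. IR64 is an indica variety that the study describes as moderately sensitive to salt, and both groups were IR64 roots from seedlings raised for 11 days after germination in Yoshida nutrient solution. The salt group then received NaCl, added in 3 steps to 140 mM, and its labels give 4 days of treatment at the 3-leaf stage, whereas the study's methods describe scoring the plants after 11 days under the treatments. The control group had the same solution without NaCl. Another group of IR64 roots, under 140 mM NaCl with 10 µM ABA (salt+ABA), the roots of PL177 and the shoots of IR64 were used only where they show how the salt response of IR64 roots differs. PL177 is a salt-tolerant line bred by crossing introgression lines of IR64. The methods call the 3 replicates of a group independent biological replicates and do not say how many plants each root sample holds.

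Salt in the root medium acts on plants both by holding back water and by bringing in sodium. Rice roots are known to answer the first with abscisic acid (ABA) signalling, in which receptors, protein phosphatases 2C and SnRK2 kinases set the activity of transcription factors, and with late embryogenesis abundant (LEA) proteins and dehydrins that protect other proteins as cells lose water. Sodium is kept from the shoot by transporters such as HKT1;5, which takes it back out of the xylem, and by the barriers of the endodermis. Uptake of nitrate, potassium, iron and copper is the everyday work of the same root cells.

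The identity of the roots was checked against marker genes. The summed intensity of 8 root markers, among them the silicon transporters Lsi1 and Lsi2 and the endodermal protein OsCASP1, was 27900.0 to 33239 in the 6 arrays and 836 to 1522 in the arrays of IR64 shoots under control and salt. Lsi1 and Lsi2, with control means of 14054 and 8203 in roots, carried most of that sum. SCR1 did not separate the organs, with control means of 162.6 in roots and 158.8 in shoots, and HKT1;5 did so little, with 83.6 and 50.7. Leaf genes were not absent from the roots, as described below. The 3 control arrays correlated with one another at Pearson's r of 0.99 to 0.994 across probe sets, and the 3 salt arrays at 0.985 to 0.991. The median intensity was 58.7 to 59.04 in 5 of the arrays and 64.34 in salt replicate 1.

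Salt up-regulated 348 probe sets (0.608% of those tested) and down-regulated 339 (0.592%), by more than 2-fold and at an adjusted p below 0.05 in limma's moderated test. A probe set past both thresholds is called a DEG here. Fold changes are on the scale of log2(intensity + 32), which understates the change of dim genes. The median fold was 2.42 among the up-regulated and 2.45 among the down-regulated, and 44 and 40 changed by more than 4-fold. In 343 of the 348 the lowest salt array lay above the highest control array, and in 324 of the 339 the highest salt array lay below the lowest control array. Over all probe sets the arrays were apart in the same ways in 14.3% and 9.51%. Taken as genes, with the brightest probe set of each, 238 of 17905 genes rose (1.33%) and 209 fell (1.17%), 2.5% in all. These shares are the background for the counts by list that follow.

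**Figure D1:**
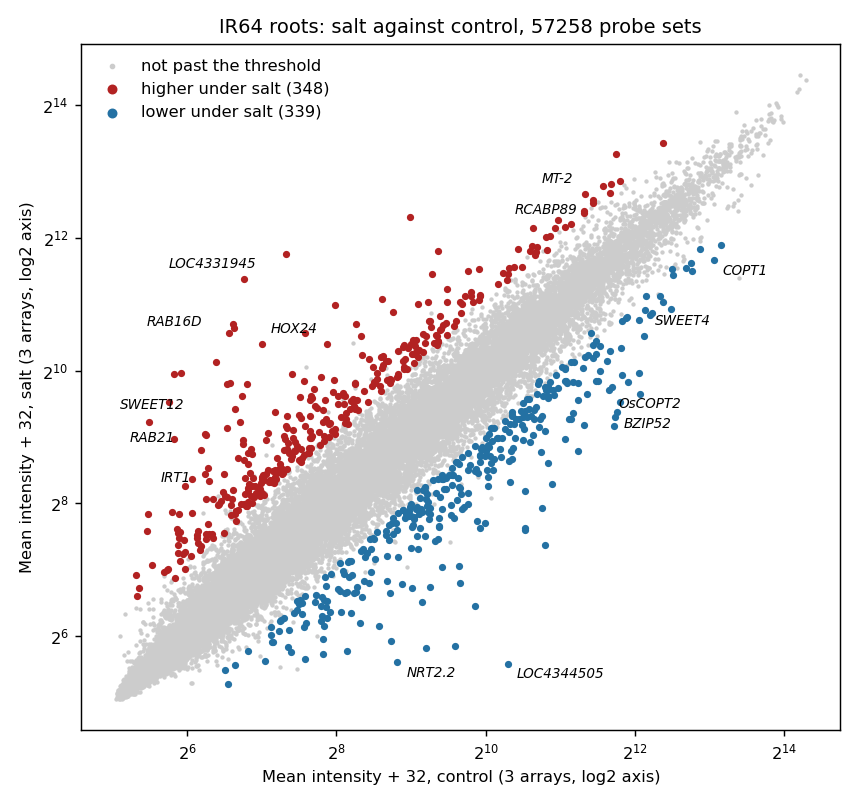
Mean intensity plus 32 of each of the 57258 probe sets in the 3 salt arrays (vertical, log2 axis) against the 3 control arrays (horizontal, log2 axis) of IR64 roots. The 348 up-regulated probe sets are red and the 339 down-regulated ones blue. SWEET12 and LOC4331945 lie far above the diagonal, and LOC4344505 and NRT2.2 far below it.

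The genes were grouped in 33 lists by what they are known to do, and dehydrins and LEA proteins had the highest median change of these lists. Of 8 listed genes 6 rose, 0 fell and the median log2 fold change was 2.14, beside 0.00 over all genes. The other 2 were EM, an LEA protein of seeds, at -0.01, and Dhn1, another dehydrin, at -0.32 (adjusted p = 0.2 from limma). RAB16D, a dehydrin, was at 65.6, 56.9 and 65.7 in the control arrays and at 1531, 1679 and 1258 in the salt arrays. It rose by 3.96 on the log2 scale (standard error 0.32, adjusted p = 2.74e-06 from limma). RAB21, a dehydrin of the same family, was at 64.8, 26.1 and 40.9 in the control and 593, 471.5 and 417 under salt, and LEA19, an LEA protein of another family, at 79.9, 61.2 and 76.9 and 708, 490.1 and 507. Both rose with no overlap of the groups, by 2.75 (standard error 0.29, adjusted p = 2.89e-05) and 2.44 (standard error 0.17, adjusted p = 6.34e-07 from limma). RAB16B and RAB16C, also dehydrins, rose by 2.18 and 2.09 (adjusted p = 0.000159 and 2.22e-05 from limma). rab25, at 1.01, was the closest to the 2-fold threshold, and the count of the group was 5 without control replicate 2, salt replicate 1 or salt replicate 3. LOC4345287, which the study's tables annotate as an LEA protein of group 1, was dim in the control, at 8.6, 7.7 and 6.7, and stood at 142, 63 and 62.9 under salt, a rise of 1.54 (standard error 0.20, adjusted p = 0.000218 from limma). Genes taken from the study's tables were picked there on these same samples, so their direction is no independent evidence.

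Of 18 listed genes that make, break down and signal ABA 2 rose, 0 fell and the median was 0.13. PM1, a plasma membrane protein of the PM19 type that is induced by ABA, was at 90.9, 36.3 and 53.8 in the control and 1189, 586 and 807 under salt. It rose by 3.21 (standard error 0.26, adjusted p = 2.74e-06 from limma), and salt replicate 1 was the highest array. ABA8OX2, a hydroxylase that breaks ABA down, was at 509, 555 and 392 and 1251, 1323 and 992, with no overlap, and rose by 1.20 (standard error 0.18, adjusted p = 0.000665 from limma). None of the SnRK2 kinases SAPK1 to SAPK10 that were measured passed the 2-fold threshold, and the largest shift among them was that of SAPK3, at -0.59 (adjusted p = 0.000445 from limma), with all 3 salt arrays below the control. Of 56 protein phosphatases 2C, a family of which only some members hold ABA signalling back, 1 rose and 0 fell, near the share of all genes. That gene was OsPP2C59, at 23, 29 and 23.1 in the control and 91.2, 77.9 and 85.7 under salt, a log2 fold change of 1.01. It fell under 2-fold, at 0.98 to 0.99, without salt replicate 1, salt replicate 3, control replicate 1 or control replicate 3. PP2C30 had a larger log2 fold change of 1.59 and PP2C68 one of 1.26, but neither passed the test (adjusted p = 0.104 and 0.13 from limma). Among 46 heat-shock genes there was 1 DEG, a share near that of all genes. That call, for the chaperone CLPB1 at 1.05, ended at 0.91 without control replicate 3.

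Transcription factors changed in both directions. HOX24, a homeodomain-leucine zipper (HD-Zip) factor, was at 118.5, 62.1 and 108.5 in the control and at 2750.5, 595 and 634 under salt. Salt replicate 1 stood far above the other salt arrays, and all 3 were above the control. The rise of 3.00 (standard error 0.51, adjusted p = 0.00151 from limma) was 2.28 without that array. Hox22, of the same family, rose by 1.67 (adjusted p = 0.00207) and hox14 fell by 1.55 (standard error 0.21, adjusted p = 0.000255 from limma), so that of 34 HD-Zip factors 2 rose and 1 fell. Without control replicate 2 the count was 4 up, and without salt replicate 1 it was 3 up and 2 down. For hox14 the control arrays were at 587.5, 294 and 639 and the salt arrays at 151.6, 141 and 158. BZIP52, a bZIP factor, was the lone DEG among 41 DREB, bZIP and SAP factors, a share near that of all genes. It was at 3117, 3045 and 3908 in the control and at 341, 676 and 779.5 under salt and fell by 2.498 (standard error 0.23, adjusted p = 7.29e-06 from limma), with no overlap. Of 24 WRKY, NAC and MYB factors 0 rose and 2 fell. NAC45 was at 442, 348 and 411 and 92.4, 154 and 216 and fell by 1.34 (standard error 0.20, adjusted p = 0.000659 from limma). WRKY62 fell by 1.55, a call that ended (adjusted p = 0.0544) without control replicate 3.

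**Figure D2:**
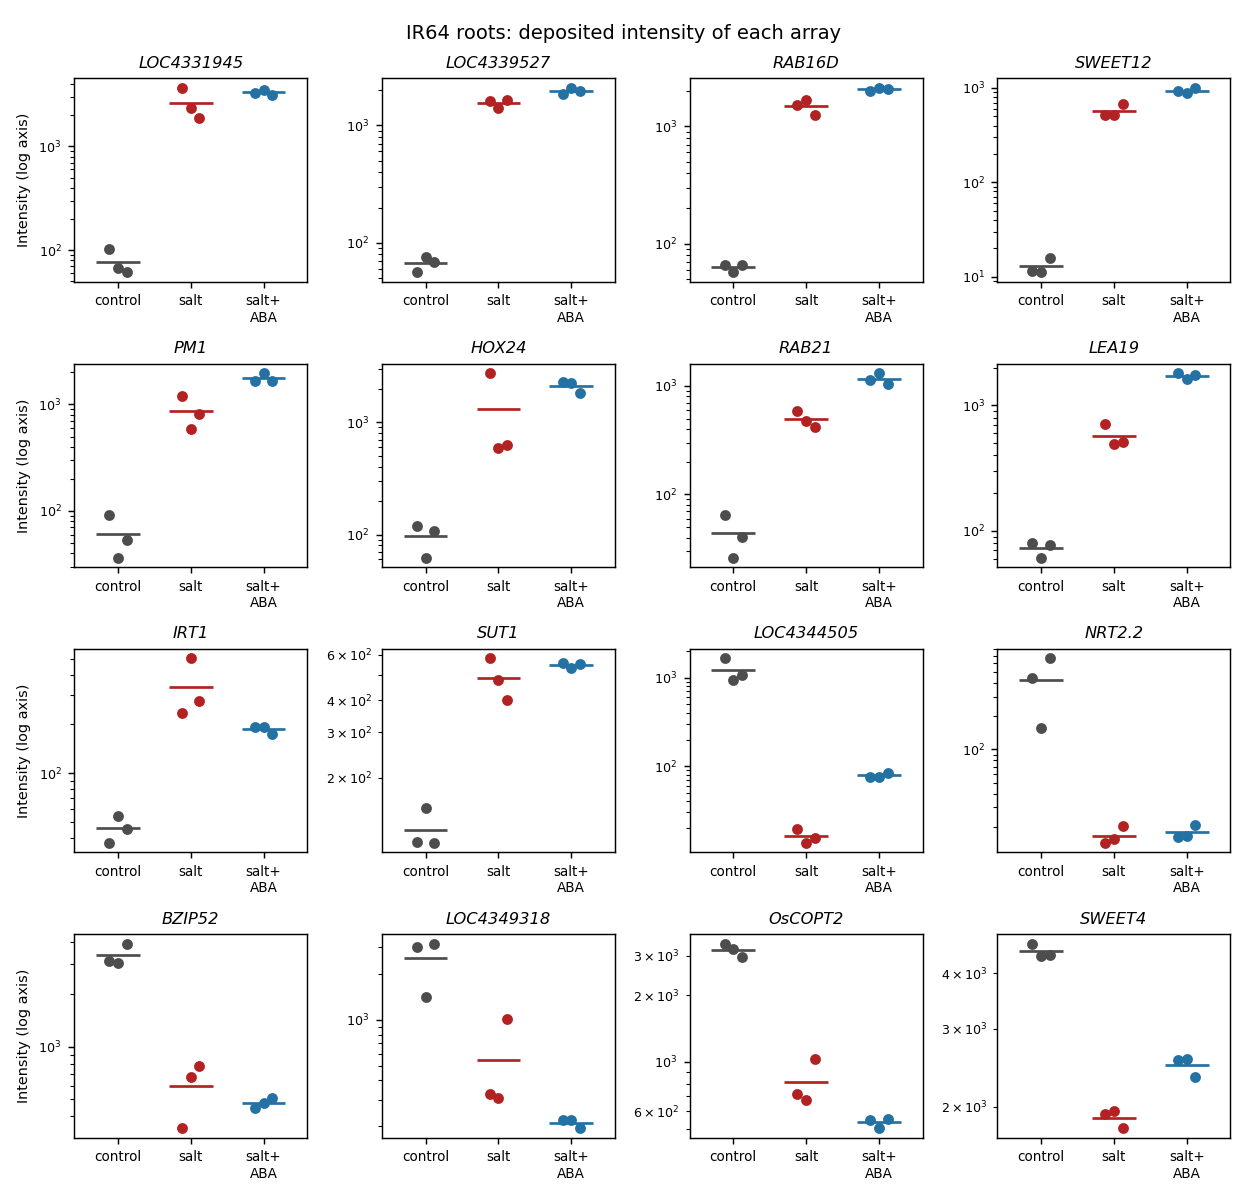
Deposited intensity (log axis, own range in each panel) of 16 genes in the 3 arrays of each IR64 root group: control (grey), salt (red) and salt+ABA (blue), with the mean as a bar. In each panel the salt points lie wholly on 1 side of the control points, as for SWEET12 at 11.1 to 15.9 in the control and 516 to 671 under salt.

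SWEET12, a sugar efflux transporter, was at 11.6, 11.1 and 15.9 in the control, below the 32 that was added before the logarithm, and at 516, 516 and 671 under salt. It rose by 3.67 (standard error 0.14, adjusted p = 9.34e-10 from limma), and the groups were far apart. SUT1, the sucrose transporter of the phloem, was at 112, 151.8 and 111 and 581, 479.8 and 401 and rose by 1.64 (standard error 0.17, adjusted p = 3.43e-05 from limma). SWEET4, another SWEET transporter, went the other way, from 4662, 4381 and 4395 to 1929, 1958 and 1786, and fell by 1.23 (standard error 0.11, adjusted p = 7.72e-06 from limma). These were the 3 DEGs of 18 sugar transporters, 2 up and 1 down, and the counts were the same in each fit without 1 array. LOC4348440, which the study's tables call a transporter of sugars, went up by 1.82 (standard error 0.17, adjusted p = 1.39e-05), and LOC4343590, annotated as a monosaccharide transporter, fell by 1.73 (standard error 0.27, adjusted p = 0.000881 from limma). Of 50 genes of sugar and starch metabolism 1 rose and 4 fell. Without control replicate 1 the falling genes numbered 2, and 0 rose without control replicate 3 or salt replicate 2 and 2 without salt replicate 1. OsTPP2, a trehalose-phosphate phosphatase, was at 347, 358 and 548.5 in the control and 151.6, 156 and 176 under salt. It fell by 1.25 (standard error 0.19, adjusted p = 0.000708 from limma) with no overlap. TPP4, which makes the same enzyme, fell by 1.11, and that was -0.84 without control replicate 2. PPDK1, a pyruvate, phosphate dikinase, fell by 1.24 and missed the test without control replicate 1 (-0.854) or salt replicate 2 (adjusted p = 0.057). SS1, the gene that rose, by 1.06, was just under 2-fold without control replicate 3 (0.993) or salt replicate 2 (0.989).

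HKT1;5, the sodium transporter of the xylem, was at 87.2, 104 and 59.8 in the control and 170.4, 226 and 339 under salt, with no overlap. Its rise of 1.16 (standard error 0.21, adjusted p = 0.0027 from limma) made it the lone DEG among 30 potassium, sodium and calcium transporters, a share near that of all genes, and it fell under the 2-fold threshold, at 0.94 and 0.999, without salt replicate 3 and control replicate 3. Of the 30 genes 14 were higher and 16 lower under salt, with a median of -0.01. The potassium transporters HAK1, HAK10, HAK12 and HAK22 had log2 fold changes of -0.72, -0.57, -0.70 and -0.90 (adjusted p = 0.00335, 0.00149, 0.0119 and 0.000109 from limma), each under 2-fold, and the salt arrays lay below the control in all 4, as in 15.1% of all genes. These 4 were chosen after the values of the list were seen, so they do not speak for the family. HAK5, the high-affinity potassium transporter, was at -0.17 and AKT1, the potassium channel of the root surface, at -0.39 (adjusted p = 0.348 and 0.578 from limma). Of 26 aquaporins and silicon transporters 1 rose and 0 fell, and 18 of the 26 log2 fold changes were below 0. The call, for the tonoplast protein TIP3 at 1.11, ended at 0.88 without salt replicate 2.

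Genes of nitrogen uptake fell where they passed the test. NRT2.2, a high-affinity nitrate transporter, was at 439, 157 and 662 in the control and at 14.3, 15.5 and 20.4 under salt. The control arrays differed among themselves, and all lay above the salt arrays. The gene fell by 3.04 (standard error 0.38, adjusted p = 0.000123 from limma). NIA1, a nitrate reductase, was at 1048, 1318 and 991 and 313, 332 and 787 and fell by 1.34 (standard error 0.24, adjusted p = 0.00224 from limma), while a second probe set of NIA1 had the opposite sign. NRT2.3, another nitrate transporter, fell by 1.24, which was -0.995, under 2-fold, without salt replicate 1. These were the 3 DEGs of 23 genes of nitrogen uptake and assimilation, all down. None of the listed ammonium transporters was a DEG, with AMT2-1 at 0.64 the highest of them.

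Copper transport showed the same direction. Of 14 transporters of copper and other metals 0 rose and 3 fell, and both counts stood in every fit without 1 array. OsCOPT2, a copper importer of the plasma membrane, was at 3402.5, 3208 and 2969.8 in the control and 716.5, 678 and 1032 under salt. It fell by 1.98 (standard error 0.12, adjusted p = 1.93e-07 from limma). COPT1, its close relative, went from 8155, 7938 and 9286.5 to 2205, 3826 and 3598, and HMA5, a copper pump, from 1029.7, 1196 and 881 to 313, 346 and 498. They fell by 1.40 (standard error 0.21, adjusted p = 0.000634) and 1.43 (standard error 0.19, adjusted p = 0.000192 from limma), with no overlap.

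IRT1, the iron transporter of the root surface, was at 37.2, 54.9 and 45.2 in the control and 234, 507 and 277 under salt, with salt replicate 2 the highest. It rose by 2.13 (standard error 0.20, adjusted p = 1.44e-05 from limma), while a zinc and iron transporter of the ZIP family, LOC4326394, was at 6532, 6625 and 7471 and 2639, 3168 and 3597 and fell by 1.12 (standard error 0.17, adjusted p = 0.000795 from limma). They were the 2 DEGs of 42 genes for iron, zinc and phytosiderophores, a share near that of all genes, with 21 genes higher, 21 lower and a median of 0.00. NRAMP4 and YSL15, also metal transporters, had log2 fold changes of 0.96 and 0.94 (adjusted p = 7e-05 and 0.0417 from limma). The count of the list rose to 3 up without control replicate 2, control replicate 3 or salt replicate 1, and reached 2 down without control replicate 1 or control replicate 2 and 3 without salt replicate 2. OsPht1;4, a phosphate transporter, was at 158, 280.4 and 187 and 639, 514 and 525 and rose by 1.25 (standard error 0.19, adjusted p = 0.000665 from limma), the lone DEG of 19 phosphate genes.

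Proline, which rice accumulates under salt, is made by pyrroline-carboxylate synthetase and removed by proline dehydrogenase. LOC4349318, annotated in the study's tables with a proline dehydrogenase domain, was at 3009.9, 1419 and 3150.0 in the control and 328, 306 and 1008 under salt. Control replicate 2 and salt replicate 3 lay closest to each other, and the groups did not overlap. It fell by 2.29 (standard error 0.45, adjusted p = 0.00391 from limma). The synthetase gene P5CS1 was bright and had a log2 fold change of 0.16 (adjusted p = 0.0974), and P5CS2 had 0.58 (adjusted p = 0.0121 from limma), under 2-fold and with other probe sets of the gene pointing the other way.

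Defence genes were split. Of 29 chitinases and defence proteins 4 rose and 3 fell. Single arrays moved these counts to between 3 and 5 up and to between 1 and 3 down, with 1 down without control replicate 3. PBZ1, a pathogenesis-related protein of the PR10 family, was at 265, 123 and 92 in the control and at 795, 2792 and 888 under salt, and salt replicate 2 stood above the others. It rose by 2.81 (standard error 0.39, adjusted p = 0.000354 from limma), or 2.25 without that array. The chitinases Cht1 and Cht11 went from 1149.5, 600.1 and 1040.3 to 2786, 3216 and 2770.5 and from 271, 217 and 195 to 722, 841 and 505. They rose by 1.63 and 1.39 (adjusted p = 0.00162 and 0.00213 from limma) with no overlap. RIXI, a xylanase inhibitor protein, was at 171, 109 and 116.5 and 38.8, 39.4 and 31.3 and fell by 1.26 (standard error 0.19, adjusted p = 0.000637 from limma). The other decreases were less steady. That of Pir7b, 1.35, missed the test without control replicate 1, control replicate 3, salt replicate 2 or salt replicate 3 (adjusted p = 0.0716, 0.054, 0.057 and 0.0513), and that of CEBIP, a receptor protein that binds chitin, 1.21, was under 2-fold at -0.979 without control replicate 3. OsMAS, the momilactone A synthase of diterpenoid phytoalexin synthesis, was at 53.9, 53 and 31.8 and 473, 247 and 158 and rose by 1.90 (standard error 0.41, adjusted p = 0.00743 from limma). It was the lone DEG of 17 genes of that pathway, whose median was 0.31. Among 40 jasmonate genes 0 rose and 1 fell, a share near that of all genes. That gene was the lipoxygenase LOX3, which fell from 533, 397 and 798 to 176, 236 and 179, by 1.43 (standard error 0.27, adjusted p = 0.0027 from limma).

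Wall, redox and detoxification genes gave a scatter of DEGs. CAD3, a cinnamyl alcohol dehydrogenase of lignin synthesis, was at 114, 109 and 89.2 in the control and 354.5, 617 and 537 under salt and rose by 1.90 (standard error 0.26, adjusted p = 0.000252 from limma). EXP31, an expansin that loosens cell walls, was at 101.4, 128.1 and 80.8 and 288, 316 and 385 and rose by 1.35 (standard error 0.26, adjusted p = 0.00346 from limma). OsCASPL1E1, a membrane protein of the family that builds the Casparian strip, was at 97.6, 74.3 and 69.6 and 217, 312 and 254. It rose by 1.30 with a small standard error of 0.09 (adjusted p = 6.87e-07 from limma), while OsCASP1 itself was at -0.04 (adjusted p = 0.944 from limma). Of 27 beta-glucosidases, which release sugar-bound compounds, 3 rose and 0 fell. BGLU5 was at 397, 375 and 367 in the control and 819, 1250.5 and 1229 under salt, a rise of 1.39 (adjusted p = 0.0002), and BGLU30 and BGLU16 rose by 1.43 and 1.33 (adjusted p = 0.00746 and 0.00122 from limma). MT-2, a metallothionein, was at 2830.3, 2734 and 2029 in the control and 5702, 6849 and 6769 under salt, and rose by 1.34 (standard error 0.16, adjusted p = 8.07e-05 from limma). The remaining DEGs of these families were less steady. 4CL5, a ligase of lignin synthesis, and CAD3 were the 2 DEGs of 30 laccases and lignin enzymes. 4CL5 was at 1099, 1327 and 923 in the control and 3069, 1497 and 2965 under salt, and its rise of 1.05 dropped to 0.85, 0.90 and 0.92 without salt replicate 1, salt replicate 3 and control replicate 3. Of 23 antioxidant enzymes 2 rose and 1 fell. Beside APX8, described below, PRXIIE-2, a peroxiredoxin, rose by 1.12, a call that ended without salt replicate 3 (0.774) or control replicate 3 (adjusted p = 0.0555), which left 1 up. AOX1, an alternative oxidase of mitochondria, was at 927, 493 and 724.4 and 247, 294 and 392 and fell by 1.17 (adjusted p = 0.0144 from limma), a call that ended without control replicate 1, control replicate 3 or salt replicate 2 (adjusted p = 0.0663, 0.0525 and 0.051). Of 52 calcium-regulated kinases 1 rose and 2 fell, and 0 did either without control replicate 3 or salt replicate 3. CPK7, a calcium-dependent kinase, was at 2886, 1803 and 2927 and 1163, 1319 and 979.6 and fell by 1.11 (adjusted p = 0.00248 from limma), just under 2-fold without salt replicate 3 (-0.983) or control replicate 3 (-0.992), whereas for the other DEGs, CIPK29 and CIPK17, the control and salt arrays overlapped. Of 14 tubulins and actins, of 32 glutaredoxins and thioredoxins and of 45 genes of cytokinin, gibberellin and ethylene none was a DEG.

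Of 61 genes of the cell cycle and DNA replication 46 had a log2 fold change below 0, the median was -0.24, 0 rose and 1 fell. The share of calls was near that of all genes. The DEG was KRP6, an inhibitor of cyclin-dependent kinases, at -1.07, and it was -0.79 without control replicate 3. The mitotic cyclins CYCB1-1 and CYCB2-2 had -0.997 and -0.94 and the replication helicase subunits MCM2 and MCM5 -0.71 and -0.61 (adjusted p = 0.00134, 0.002, 0.00232 and 0.00387 from limma), all under 2-fold. The count of the list was 2 down without control replicate 1 or 2, 3 without salt replicate 1 and 0 without control replicate 3. Of 40 cellulose synthases, related synthases and endoglucanases none was a DEG, 29 lay below 0 and the median was -0.20. Of 66 auxin genes 0 rose and 2 fell, a share near that of all genes. IAA9, a repressor of auxin responses, was at 556, 358 and 497 and 201.5, 179.5 and 199 and fell by 1.20 (standard error 0.12, adjusted p = 2.42e-05 from limma), and ILL3, of the enzymes that free auxin from amino acids, fell by 1.65 (standard error 0.35, adjusted p = 0.00594 from limma).

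**Figure D3:**
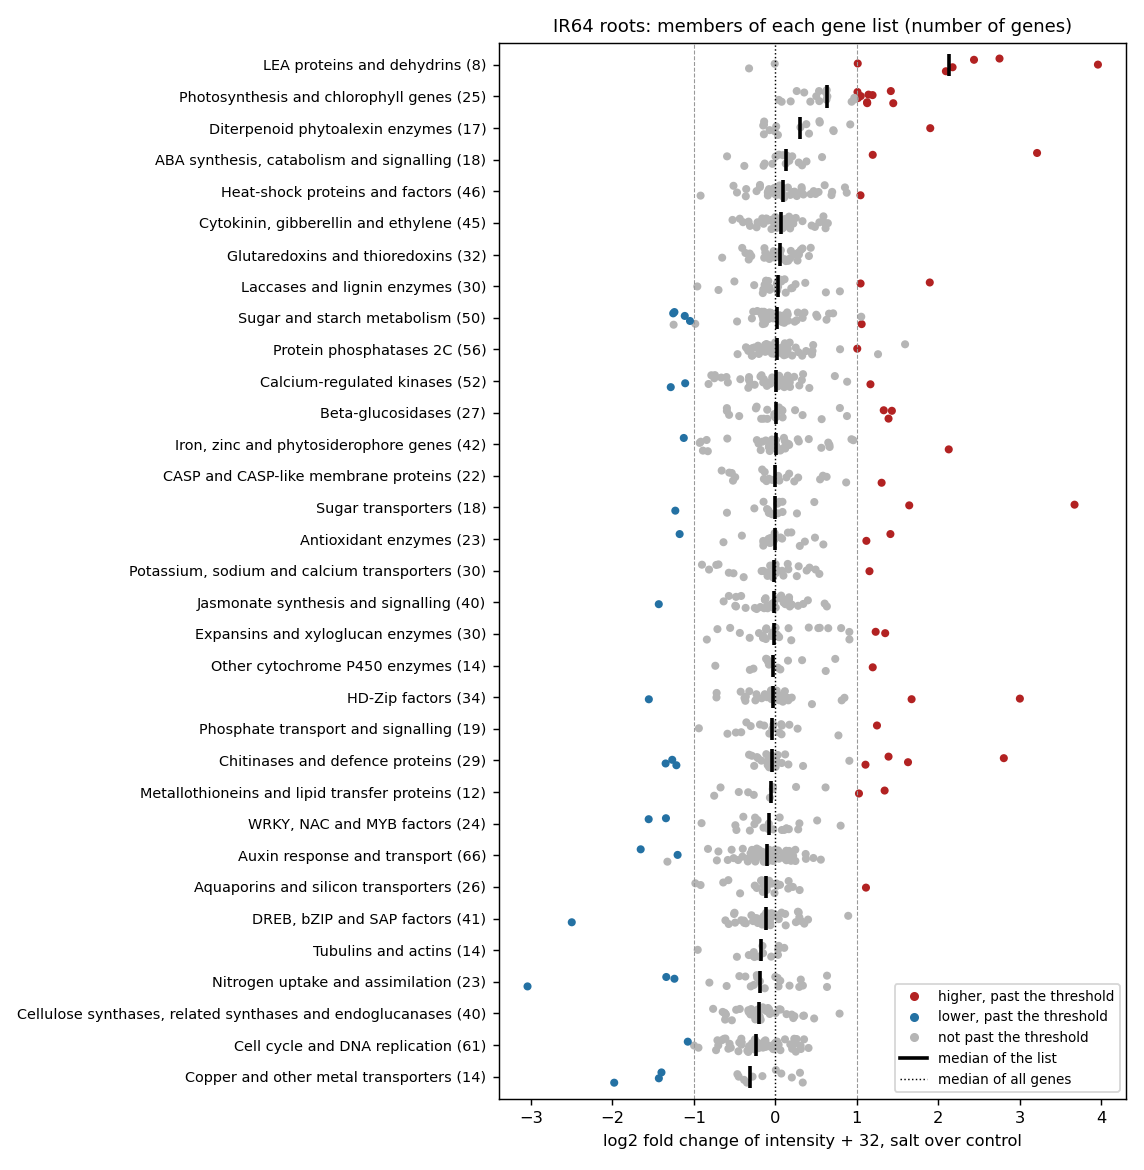
Log2 fold change of intensity + 32, salt over control, for each gene of 33 lists in IR64 roots. Each point is a gene, red or blue where it was a DEG, the black bar is the median of the list and the dotted line that of all genes, 0.00. LEA proteins and dehydrins have the highest median, 2.14, followed by the photosynthesis and chlorophyll genes at 0.64.

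Several of the largest changes were in genes that the annotation used here does not name. They are written as LOC with their gene number. LOC4331945 was at 103, 66.7 and 61.1 in the control and 3686.5, 2370.4 and 1873 under salt, the largest rise of a gene, by 4.54 (standard error 0.20, adjusted p = 4.02e-09 from limma). LOC4343033 went from 86.2, 59.2 and 52 to 1678, 1488 and 1744 and rose by 4.07 (adjusted p = 5.27e-09 from limma). The groups were far apart in both. LOC4343034, which the study's tables list as a conserved hypothetical protein, rose by 3.31 (adjusted p = 2.45e-07), and LOC4339527, annotated there as a nonspecific lipid transfer protein, went from 56.1, 76.4 and 69.2 to 1619.9, 1410.5 and 1649.8 and rose by 3.96 with a standard error of 0.10 (adjusted p = 1.03e-11 from limma). LOC4349298, also hypothetical, was at 2089, 308 and 471 in the salt arrays against 38.6, 15.2 and 20 in the control, so that salt replicate 1 carried much of its rise of 3.61, which was 2.79 without that array.

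Among the decreases LOC4344505 was the largest. It was at 1659, 955 and 1069 in the control and at 19.3, 13.4 and 15.5 under salt and fell by 4.68 (standard error 0.22, adjusted p = 8.47e-09 from limma). LOC4329752 went from 828, 580.5 and 906 to 62.6, 80.3 and 93.7 and LOC4329468 from 1639, 1878 and 2057 to 245, 242 and 360.4. They fell by 2.88 (standard error 0.24, adjusted p = 3.7e-06) and 2.65 (standard error 0.11, adjusted p = 4.02e-09 from limma) with no overlap. LOC4344996, LOC4332926, LOC4335518, LOC4325984 and LOC4324132 fell by 2.55 to 2.88, and in each of them all 3 salt arrays lay below the control. LOC4350662, annotated in the study's tables as a glycoside hydrolase, and LOC4339780, annotated as an I-box binding factor, fell by 1.72 and 1.82 (adjusted p = 1.3e-05 and 0.00184 from limma).

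Photosynthesis and chlorophyll genes were brighter under salt in these roots. All 25 listed genes had a positive log2 fold change, with a median of 0.64, and 9 rose and 0 fell. They include RBCS1, which was near the floor at 1.5, 2.2 and 3.4 in the control and 4.7, 4.2 and 4.4 under salt. Its log2 fold change was 0.08, and it is counted below among the genes with the salt arrays above the control. CHLP, the geranylgeranyl reductase of chlorophyll synthesis, was at 516, 854 and 675 in the control and 1156, 2517 and 2518 under salt and rose by 1.45 (standard error 0.28, adjusted p = 0.00379 from limma). RCABP89, a chlorophyll a/b-binding protein, was at 1125, 2045 and 1497 and 2220.0, 4850.4 and 6468, and the ferredoxin ADI1 at 1359, 2239 and 1671 and 3037, 4089.8 and 5173.5. Salt replicate 1 was the lowest of the salt arrays for these 3 genes and for 24 of the 25, and in 20 of the 25 the salt arrays nevertheless all lay above the control, as they did in 20% of all genes. RCABP89 and ADI1 rose by 1.42 and 1.19 (adjusted p = 0.0302 and 0.00899 from limma). The other DEGs were RCABP69 at 1.14, PORA, which reduces protochlorophyllide, at 1.13, the magnesium chelatase subunit CHLH at 1.13, the photosystem proteins PSAG and PSB28 at 1.05 and 1.01, and the glycolate oxidase GLO1 at 1.01. RBCS, the small subunit of Rubisco, had 0.97 and CAB2R 0.63 (adjusted p = 0.0602 and 0.0533 from limma). The other, dimmer probe set of CAB2R was a DEG with the same sign. APX8, an ascorbate peroxidase of the chloroplast, was at 385.5, 451 and 425.5 in the control and 885, 1270.4 and 1543 under salt and rose by 1.41 (standard error 0.20, adjusted p = 0.000428 from limma).

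The calls in this group depended on single arrays. RCABP89, RCABP69 and GLO1 each fell out without control replicate 3, salt replicate 2 or salt replicate 3, and PORA, at 0.96, without control replicate 1. RCABP89 and RCABP69 also fell out without control replicate 1. The count of DEGs was 3 without control replicate 1 or salt replicate 2, 4 without salt replicate 3, 6 without control replicate 3, 11 without control replicate 2 and 12 without salt replicate 1. The summed intensity of the 25 genes was 28315 to 36910.0 in the control arrays, 44752 to 69826 in the salt arrays and 18596 to 23492 in the 3 salt+ABA arrays. Salt was thus the highest of the 3 root groups and salt+ABA the lowest, without overlap. In IR64 shoots of the control the sum was 201092 to 221662, and the rise from control to salt in roots came to 12.37% of it. For the 9 DEGs taken singly the rise was 5.25% to 18.34% of the mean level in control shoots, with a median of 15.53%. The summed root markers, carried mostly by Lsi1 and Lsi2, were at 28445 to 33239 in the control and 27900.0 to 30317 under salt. In bulk tissue a change in the share of a cell type and a change of RNA per cell cannot be told apart, and the part of shoot or other green tissue in the result was not tested.

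**Figure D4:**
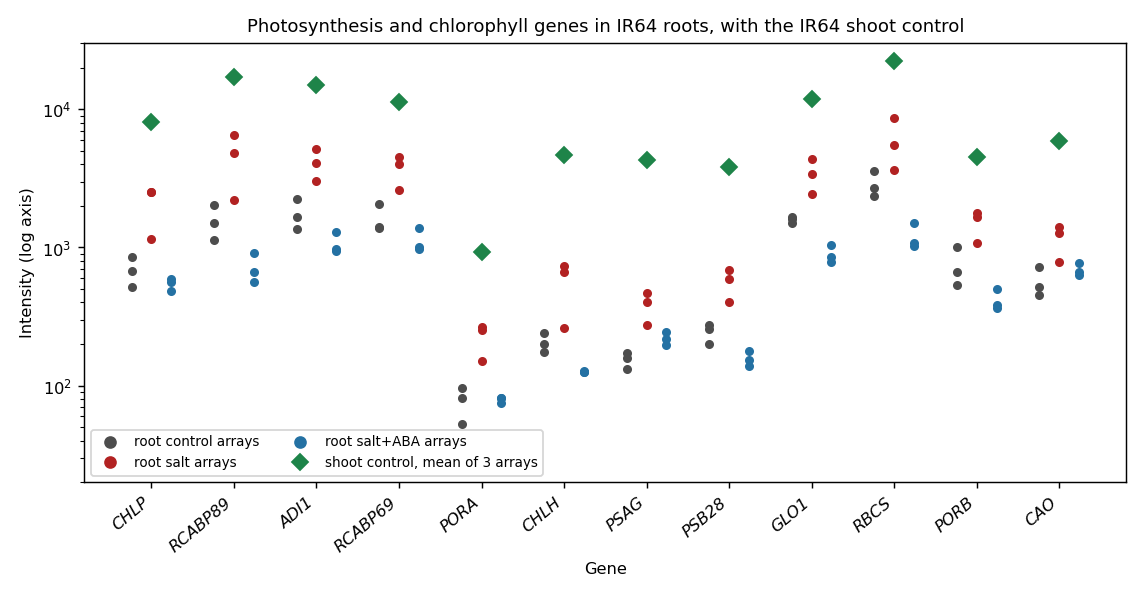
Intensity (log axis) of the 12 photosynthesis and chlorophyll genes with the largest log2 fold change in IR64 roots: control (grey), salt (red) and salt+ABA (blue) arrays, with the mean of the 3 control arrays of IR64 shoots as a green diamond. The salt points lie above the control points in each gene and below the shoot level, and for CHLP at 1156 to 2518 against 516 to 854.

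Salt+ABA roots gave the levels of the same genes with ABA in the medium. They share their control with the salt comparison, so only levels are given. The DEGs were picked on the salt and control arrays, so a mean back from that of salt can follow from that choice alone. The counts below have no share over all probe sets to set beside them. Of the 348 up-regulated probe sets 117 had a higher mean under salt+ABA than under salt, and 84 had a mean below that of the control. Of the 339 down-regulated ones 96 went lower still and 9 lay above the control mean. RAB21 and LEA19 were at 1134, 1314 and 1032 and 1808, 1610.4 and 1748 under salt+ABA, above all of their salt arrays. IRT1 was at 191, 193 and 173, below its salt arrays and above its control, and LOC4344505 at 75.4, 75.7 and 83.6. For NRT2.2 the salt+ABA arrays, at 16.1, 16.6 and 20.9, were as low as those of salt.

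Set beside PL177 roots, which have their own control arrays, the DEGs of IR64 roots were mostly DEGs too. Of the 348 up-regulated probe sets 307 were also up-regulated in PL177 (88.2% of the IR64 list and 73.4% of the 418 of PL177, 0.73% of those tested), and of the 339 down-regulated ones 278 (82.0% and 80.1% of the 347 of PL177, 0.606%). The log2 fold change had the same sign in PL177 in 347 and in 339, counts with no share over all probe sets beside them. The methods describe a box that held plants of both lines. Arrays of the lines may thus share conditions, and the overlap is not known to be between independent samples. The difference between the responses was tested in the same fit. An unadjusted p below 0.05 from limma was reached by 1658 of the 57258 probe sets, fewer than that cutoff passes on average where nothing differs. The test took the arrays of both lines as independent. Where arrays of the same treatment and number vary together, it overstates the error of the difference. How far they did was not tested, so the low count does not show that the responses were equal. Over 2-fold and at an adjusted p below 0.05, 1 probe set passed (0.00175%). It was LOC4341335, at 29.4, 72.5 and 46 in the control and 191, 267 and 254 under salt in IR64, a rise of 1.68 (standard error 0.14, adjusted p = 4.14e-06 from limma). In PL177 it was at 34.5, 33.6 and 38 in the control and 29.1, 25.9 and 25.5 under salt. The difference was 1.85 (standard error 0.20, adjusted p = 0.00654 from limma). The count was 2 when control replicate 2 of either line's roots or salt replicate 3 of IR64 roots was left out.

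The response of IR64 shoots was less alike. Shoots had 560 up-regulated (0.978%) and 911 down-regulated probe sets (1.59%), 2.57% in all, in the fit over all 36 arrays, which gave every value for shoots and every test of root against shoot. Of the root's 348 up-regulated probe sets 72 were up-regulated in shoots too (20.7% of the root list, 12.9% of the shoot list) and 16 were down-regulated there. Of its 339 down-regulated ones 43 were down-regulated in shoots (12.7% and 4.72%) and 9 were up-regulated. The difference itself, the log2 fold change in roots minus that in shoots, passed the same thresholds with a positive sign for 929 probe sets (1.62%) and with a negative sign for 747 (1.3%), together 2.93%. A positive sign can come from a rise in roots or a fall in shoots. Counted as genes, 2.04% rose and 3.29% fell in shoots (5.33% in all), and the difference passed upward for 3.36% and downward for 2.61% (5.96% in all). Among the root DEGs it passed for 197 of the up-regulated, 185 of them with the larger rise in roots, and for 186 of the down-regulated, 185 with the larger fall in roots. These DEGs were picked on the root arrays that also enter the difference, so its sign among them was largely set by that choice.

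SWEET12 was at 8.7, 13.8 and 15.1 in control shoots and 12.5, 14.4 and 14.8 in salt shoots, so that no rise was seen in the shoot, and the difference of 3.69 had an adjusted p of 3.8e-14 from limma. LOC4331945 was at 2919.8, 5906.5 and 3685 in control shoots and 4062, 4544 and 5761 in salt shoots, levels that overlapped those of salt-treated roots. Its difference was 4.36 (adjusted p = 7.54e-10 from limma). LOC4344505 and NRT2.2, which fell in roots, were near the floor in shoots with and without salt, at 14.9, 13.6 and 26 and 20.7, 22.4 and 18.7 for the first and 17.9, 17.1 and 19.8 and 17.9, 15.4 and 15.6 for the second. The differences were -4.88 and -3.02 (adjusted p = 1.9e-12 and 2.54e-05 from limma).

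PBZ1 rose in roots and fell in shoots by 1.09 (adjusted p = 0.0448 from limma), where it went from 8528, 7335 and 7086 to 2750.4, 2606 and 5498, with a difference of 4.01 (adjusted p = 8.2e-06 from limma). OsMAS also fell in shoots, by 1.31 (adjusted p = 0.0129), and its difference was 3.24 (adjusted p = 0.000102 from limma). In 8 of the 17 diterpenoid phytoalexin genes the difference passed, all 8 with a positive sign, beside 3.36% of all genes. Apart from OsMAS none of the 8 was a DEG in roots. CPS4, a copalyl diphosphate synthase, had 0.55 in roots and -2.03 in shoots, and the cytochrome P450 CYP71Z7 -0.14 and -2.74. IRT1, SUT1, Cht1, CAD3 and APX8 rose further in roots than in shoots, where none of them was a DEG, with differences of 2.36, 1.95, 1.67, 1.91 and 1.45 (adjusted p = 9.31e-07, 1.97e-06, 0.00116, 9.53e-05 and 0.000218 from limma). SUT1, CAD3 and APX8 had higher means in control shoots (887, 7243 and 6512) than in salt-treated roots (487, 503 and 1233), while IRT1 and Cht1 had lower ones. OsCOPT2, HMA5, SWEET4, IAA9, hox14 and LOX3 fell further in roots, by differences of -1.15 to -1.68, each past the test.

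Dehydrins and LEA proteins went the other way. RAB21 rose by 6.04 in shoots, from 65.3, 93.2 and 374 to 14543, 12751 and 10867, against 2.75 in roots, and LEA19 by 4.48, from 151.7, 211 and 897 to 9134, 7904 and 8315, against 2.44. The differences of -3.23 and -1.98 passed (adjusted p = 0.00207 and 0.00684 from limma), as did that of RAB16B, at -2.95. Control replicate 3 of the shoots was the highest control array for RAB21 and LEA19, and without it the differences were -3.825 and -2.636. For 3 of the 8 genes of the list the response was thus smaller in roots and for 0 larger. RAB16D did not pass, with 3.96 in roots and 3.25 in shoots (adjusted p of the difference 0.327 from limma), nor did BZIP52, which fell by 2.498 and 3.04 (adjusted p of the difference 0.476 from limma).

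**Figure D5:**
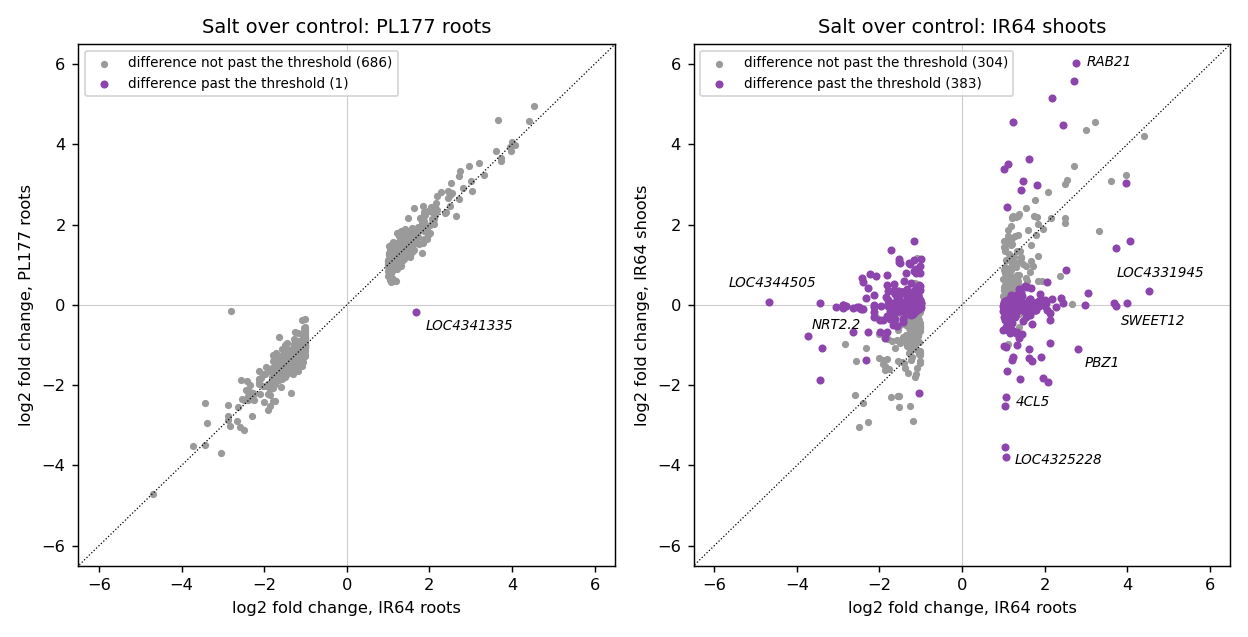
Log2 fold change (salt over control) of the 687 DEGs of IR64 roots in PL177 roots (left) and in IR64 shoots (right) against that in IR64 roots, with the line of equal responses dotted. Purple marks probe sets whose difference passed the test, 1 on the left and 383 on the right. The DEGs were picked on the IR64 root arrays that also enter both differences. On the right many root DEGs lie near 0 on the shoot axis, as SWEET12 and LOC4344505.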

How the data were processed

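RNA of roots and shoots was hybridised to Affymetrix rice genome arrays. The authors deposited linear intensities per probe set. The sources used here do not state how they were summarised or normalised. The plan had allowed for log2 values, so the linear values were logged. The 123 control probe sets were dropped, the 18 root arrays were quantile normalised, 32 was added and log2 taken. limma 3.58.1 (R 4.3.3) fitted the 6 root groups, and tests against shoots used all 36 arrays in 12 groups. DEGs passed 2-fold and an adjusted p (Benjamini-Hochberg) of 0.05. A gene was represented by its brightest probe set. Of the probe sets 22436 named 1 gene, 95 several and 34727 none. Symbols came from the platform annotation and a japonica gene table (ASM3414082v1). The text names the 10 largest DEGs each way with groups apart, up to 3 per list and direction, the largest differences, genes the study names for roots, markers, and a few others chosen after their values were seen. The members and lists were chosen with earlier results of these data known. Fits were tested on simulated data. Scan and extraction batches are not given in the labels.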

Additional observations from a re-analysis of the deposited data

Results flagged for a closer look

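The largest differences between the salt responses of roots and shoots of IR64 were in genes whose shoot response was the larger one, apart from LOC4344505. The log2 fold change in roots minus that in shoots was highest for LOC4325228, annotated in the study's tables with a domain of unknown function (4.862), for JAZ9, a repressor of jasmonate signalling (4.735), and for LOC4344624, annotated as plastocyanin-like (4.628). For JAZ9 the response was 0.61 in roots and -4.11 in shoots, where it went from 6277, 3740.2 and 5781 to 370.2, 62.2 and 441. Its difference was 4.017 without shoot salt replicate 2 and 4.07 without root salt replicate 3. LOC4325228 had 1.06 in roots and -3.78 in shoots, and LOC4344624 1.04 and -3.54. In roots the rise of both missed the threshold without salt replicate 3 (0.70 and 0.78), control replicate 1 (1.10 and 1.02) or control replicate 3 (0.90 and 0.91), as did that of LOC4325228 without salt replicate 1 (1.07). The difference was lowest for LOC4344505 (-4.877), LOC4336815 (-4.714) and LOC4333791 (-4.606). LOC4344505 fell in roots and was dim in shoots, whereas LOC4336815 had 0.20 in roots and 4.92 in shoots, and LOC4333791 0.20 and 4.81. In all, the difference passed the test with a positive sign for 929 probe sets and with a negative sign for 747.

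Between the roots of the lines, LOC4341335 differed by 1.849, with 1.68 in IR64 and -0.17 in PL177.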

How the results depend on the processing

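DEG counts were 557 up and 520 down with 1 added before the logarithm, and 174 and 203 with 4 times the 32 added, where 42 list genes were called instead of 72 and the differences from shoots numbered 571 and 478. Without the 2-fold threshold they were 3167 and 3400, with 268 list genes. Testing against 2-fold (treat) left 24, 39 and 9, and an ordinary t-test after adjustment 7, 3 and 2. Leaving out 1 array gave 300 to 481 up, 284 to 453 down, 59 to 85 list genes, 1 to 2 differences from PL177, and 638 to 1392 and 630 to 937 from shoots. With the replicate number as a replicate block the counts were 358, 344 and 75, with 1 difference from PL177 and 1003 and 765 from shoots. Salt and control samples of IR64 roots with the same number did not deviate together (correlations 0.0582, -0.2474 and -0.3866). The numbers were thus not taken as pairing salt with control. Pairing of IR64 with PL177 samples of the same treatment and number was not tested. PPDK1 control arrays moved alike, at 7451.5, 2666.2 and 3927.9 in IR64 and 7156.1, 2590.6 and 3854.4 in PL177. RAB16D salt arrays did not, at 1531, 1679 and 1258 in IR64 and 866, 1215 and 3114 in PL177. Without normalisation 415 and 302 were called. A fit on only the 6 arrays compared kept 75 of the named results and weakened 24, among them CHLP, NIA1 and LOC4349318. In that fit 6 photosynthesis and chlorophyll genes rose instead of 9, and 1 gene of sugar and starch metabolism fell instead of 4. The sign turned, and leaving out 1 array gave these lowest and highest values, for 5 named genes: Lsi1 -0.036 to 0.047 (also -0.022 as deposited and -0.048 median-centred), LOC4336815 -0.057 to 0.475, SHR1 -0.004 to 0.278, OsCASP1 -0.291 to 0.12 and JAZ9 -0.04 to 0.937. The causes were not tested. Background correction could not be varied, since the values were already processed. Dim genes limit the precision, with 31.2% of values below 32.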
